A study of Mus musculus with 12 samples.

Results

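The activation of mouse CD8+ T cells in plain media was described across genes by setting 4 libraries of cells activated for 72 h (the media group) against 4 libraries of cells frozen straight after purification (the naïve group). These 8 libraries were taken by their labels from the 12 of the series, and all 13780 genes of the count table were members. CD8+ T cells had been purified from spleens of young adult C57BL/6J mice by positive selection on magnetic beads. Naïve cells were lysed at once, untreated, whereas media cells were cultured in RPMI medium with fetal bovine serum, 2-mercaptoethanol, Dynabeads coated with antibodies to CD3 and CD28, and human IL-2 at 10 U/ml. The remaining 4 libraries were activated in the same way with 40 mM sodium lactate, and they enter only the shared estimate of the spread and a few values given side by side. The naïve group was not sorted further on markers of naïve cells, so it holds every cell that the beads retained. Culture, IL-2 and the beads differed from the fresh cells together with activation, and their shares in any difference cannot be told apart. Only 1 time point was measured, and whether the naïve and the media libraries came from the same mice is not given in the sources used here. P-values therefore measure the spread between libraries.

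A naïve CD8+ T cell is a small resting cell that recirculates through lymphoid organs under the control of transcription factors such as KLF2 and TCF-1. Engagement of the T cell receptor together with CD28 first switches on immediate early genes, then the growth programme (nutrient uptake, aerobic glycolysis, lipid and nucleotide synthesis), and within days repeated cell division and the acquisition of granzymes and cytokine receptors. IL-2, acting through a receptor whose high-affinity form needs the α chain CD25, sustains this growth. Aerobic glycolysis is a hallmark of the proliferating effector cell and produces lactate, which leaves the cell through monocarboxylate transporters.

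Total counts were 16439750 to 18601223 in the naïve and 15842423 to 20922872 in the media libraries. The first principal component of log2 CPM (counts scaled to library size by TMM) held 86.8% of the variance and separated the groups, and the second (6.1%) set naïve replicate 4 at -76.5, against 18.1 to 28.6 for naïve replicates 1 to 3. Among 7404 genes with at least 20 CPM in naïve libraries, 754 were more than 2-fold from the mean of the other 3 in naïve replicate 4, and 120 to 262 in each of the others. Naïve replicate 4 and media replicate 4 also carry library numbers from the higher of 2 runs of numbers, with 1 library of each group in that run and 3 of each in the lower. Naïve libraries further held RNA of other cells. B cell marker RNA summed to 8668, 13589, 6356 and 9933 CPM in naïve replicates 1 to 4 and to 563 to 874 CPM in media libraries, and red cell markers to 1113, 4300.0, 439 and 98.2 CPM against 0 to 0.231. Most of the B cell sum in media was the single gene Ighm, at 417, 620, 427 and 679 CPM in media replicates 1 to 4. CD8+ T cell markers, which check the label, were present in every library (2858 to 5487 CPM in naïve, 4044 to 4916 CPM in media).

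Of 13767 genes that passed the filter on low counts, 7915 differed between the groups at an adjusted p of at most 0.01 in the quasi-likelihood test of edgeR, which is 57.5% of those tested. The count was 3922 higher in media cells (28.5%) and 3993 lower (29.0%), so nearly as many genes were higher as lower. In the following, a gene rose or fell only where it passed this test. At least 2-fold changes were found for 2446 of the higher and 2545 of the lower genes, and at least 16-fold changes for 359 and 834. The 4 media and 4 naïve values did not overlap for 8425 genes (61.2%), among them 7539 of the genes that passed the test. For such genes the exact two-sided permutation test over the 70 arrangements of 4 against 4 libraries gives 0.0286, the smallest p it allows. The median log2 fold change over all tested genes was -0.03, against which the medians of the gene groups below are read. CPM are shares of a library, so a change in RNA per cell is not seen in them, and in bulk RNA fewer cells of a type and less RNA per cell cannot be told apart. Of the genes called, 7665 were also called with naïve replicate 4 left out.

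**Figure D1:**
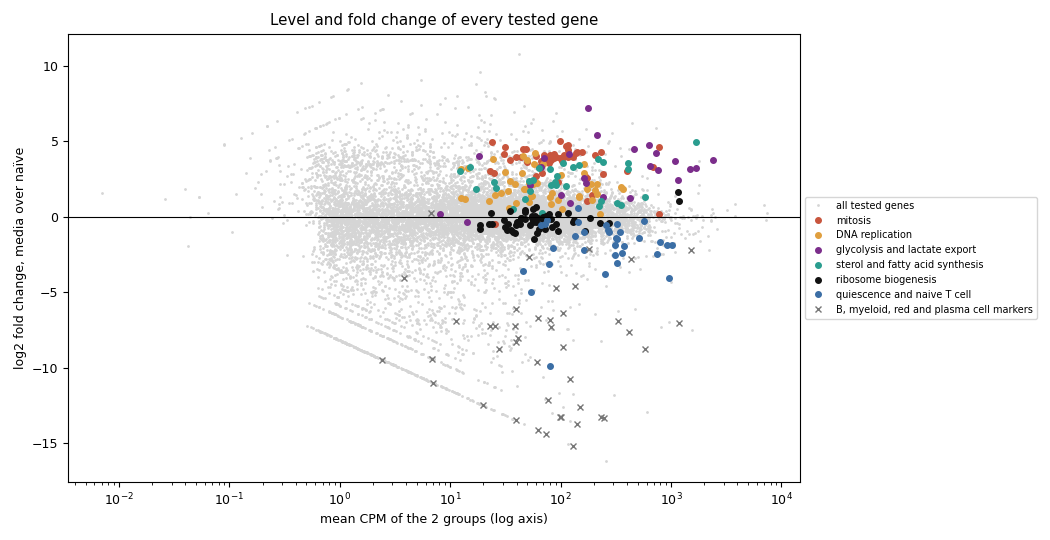
Log2 fold change of media over naïve cells against the mean CPM of both groups on a log axis, with 1 grey point for each tested gene, coloured points for the members of 6 gene lists and crosses for markers of B, myeloid, red and plasma cells. Mitosis, DNA replication, glycolysis and sterol genes lie mostly above 0, quiescence genes mostly below, ribosome biogenesis genes near 0, and the crosses reach the lowest values; the straight lines of grey points are genes with no or few counts in 1 group, whose fitted fold changes depend on the prior count.

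Genes of the receptor complex itself moved little in the median over all libraries. Of 21 genes of the T cell receptor, its co-receptors and proximal kinases, 3 rose and 4 fell (median log2 fold change -0.13). The shares, 14.3% and 19.0%, were below the 28.5% and 29.0% of all tested genes. Without naïve replicate 4, 2 rose and 6 fell. In the lower run of library numbers the median was -0.24, and between the single pair of the higher run 0.49. Cd3e, a signalling chain of the receptor, stood at 386, 354, 464 and 325 CPM in naïve replicates 1 to 4 and 671, 801, 605 and 599 CPM in media replicates 1 to 4. All 4 media values lay above the naïve ones, and Cd3e rose by a log2 fold change of 0.81 ± 0.13 (SE). The kinase gene Zap70 rose by 0.81 ± 0.13. Cd8a, the co-receptor α chain, did not pass the test (0.08 ± 0.25). It stood at 1025, 849, 1208 and 388 CPM in naïve replicates 1 to 4 and at 821 to 1068 CPM in media libraries. Cd8b1, the co-receptor β chain, fell (-0.93 ± 0.23), from 809.8 ± 287 to 426 ± 53.2 CPM, although naïve replicate 4 lay within the media range. It was no longer called without media replicates 1 or 3 (-0.89 to -0.86).

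The resting programme fell. Of 33 genes linked to quiescence and the naïve state, 24 fell and 1 rose, with a median of -1.67. Klf2, whose product keeps T cells quiescent and drives exit from lymph nodes, stood at 2141, 1933, 2023 and 1118 CPM in naïve replicates 1 to 4 and at 45.6, 163, 51.4 and 169 CPM in media replicates 1 to 4. Media replicates 2 and 4 retained more than 1 and 3, yet all 4 lay far below the lowest naïve library. The log2 fold change was -4.08 ± 0.60 (adjusted p = 5.91e-05). Klf3, a related factor, fell from 468 to 33.7 CPM (-3.80 ± 0.37). Tcf7 and Lef1, which encode the partner factors TCF-1 and LEF-1 of naïve and memory cells, both fell by 1.87 on the log2 scale, Tcf7 from 1588 ± 280.1 to 434 ± 134 CPM and Lef1 from 486 ± 96.9 to 133 ± 28.3 CPM. Antiproliferative genes of the same list fell with them: Btg1 from 1273 to 231 CPM and Btg2 from 528 to 89.3 CPM. Foxo1, a regulator of Klf2 and Il7r, fell less (-0.56 ± 0.10), and its relative Foxo3 rose (0.54 ± 0.14), a change no longer called without naïve replicates 1, 2 or 3 or media replicates 1, 2 or 3 (0.46 to 0.53). In the lower run of library numbers alone the median of the list was -1.68, and between the single pair of the higher run -1.24.

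Among 24 genes for homing receptors and integrins, 13 fell and 1 rose. S1pr1, the sphingosine-1-phosphate receptor that lets cells leave lymphoid tissue, stood at 470.0, 417, 470.0 and 955 CPM in naïve replicates 1 to 4 and 39.9, 117, 39.5 and 80.6 CPM in media replicates 1 to 4. The groups did not overlap, and naïve replicate 4 held the most. Its log2 fold change was -3.06 ± 0.38. Ccr7, the chemokine receptor for entry into lymph nodes, did not pass the test: its values were 626, 429.5, 476 and 961 CPM in naïve and 401, 571, 603 and 477 CPM in media replicates 1 to 4, and the groups overlapped. Ccr9, the receptor for gut homing, had the largest decrease in the list, from 159.7 ± 94.5 CPM to 0 to 0.491 CPM (-9.88 ± 0.78), with 21.5% of its exon length shared with another gene. Itgae, the integrin chain CD103 that naïve CD8+ T cells carry and dendritic cells share, fell from 169 to 2.38 CPM (-6.16 ± 0.52), and Itga4 from 614 to 110.0 CPM (-2.48 ± 0.23). Itgb1, the common β1 chain, was the 1 gene of the list that rose (0.45 ± 0.13), close to the threshold and no longer called without naïve replicates 1, 2, 3 or 4 or media replicates 1, 3 or 4 or lactate replicates 2, 3 or 4 (0.33 to 0.45). Without media replicate 2, which held the most of both in its group, the log2 fold change was -11.35 for Ccr9 and -6.83 for Itgae.

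Of 13 genes for costimulatory and activation receptors 6 rose and 4 fell (46.2% and 30.8%, against 28.5% and 29.0% of all tested genes). The 3 largest increases were of Tnfrsf9, Tnfrsf4 and Tnfrsf18, of the TNF receptor family. Tnfrsf9, which encodes 4-1BB, stood at 5.97, 6.55, 17 and 18.8 CPM in naïve and 975, 766, 952 and 836 CPM in media replicates 1 to 4. Every media library lay far above every naïve one, and the log2 fold change was 6.19 ± 0.38 (adjusted p = 3.61e-08). Tnfrsf4 (OX40) rose from 9.2 ± 5.39 to 249.8 ± 59.9 CPM (4.76 ± 0.37), Tnfrsf18 (GITR) from 35.5 to 351 CPM (3.31 ± 0.27), and Icos from 48.4 ± 27.3 to 153 ± 51.3 CPM (1.66 ± 0.34). Cd28, the receptor that the beads engage, rose from 168 to 541 CPM (1.69 ± 0.18). Tnfrsf14, of the same family, fell (-1.36 ± 0.19). The early activation marker Cd69 was among those that fell, from 453 ± 130 to 138 ± 93.8 CPM (-1.71 ± 0.38), and media replicate 4 overlapped the naïve range (without it -2.37). Cd40lg, the ligand that helps B cells, fell most in the list (-1.72 ± 0.42) and was no longer called without media replicate 2 (-1.58).

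Receptors that restrain T cells split in direction. Of 13 such genes 5 rose and 6 fell (38.5% and 46.2%, against 28.5% and 29.0% of all tested genes). Ctla4, the competitor of CD28, stood at 22, 19.5, 27.4 and 42.6 CPM in naïve and 488, 668, 798 and 689.7 CPM in media replicates 1 to 4, with no overlap, and rose by 4.57 ± 0.26. Lag3, a receptor for MHC class II, rose from 17.6 ± 5.7 to 515 ± 24.5 CPM (4.87 ± 0.21). Pdcd1, which encodes PD-1, rose from 4.04 ± 4.42 to 46.6 ± 21.7 CPM (3.52 ± 0.58), and Tigit from 6.2 to 77.1 CPM (3.63 ± 0.46). Naïve replicate 4 held the most of both among the naïve libraries, and without it the log2 fold changes were 4.66 and 4.64. Those that fell were low in naïve libraries or are also found on myeloid, NK or B cells: Havcr2 (16.8 to 0.623 CPM), Klrg1 (1.39 to 0.0116 CPM), Cd244a, Cd200r1, Entpd1 and Lair1. Myeloid marker RNA summed to 2896, 2639, 1202 and 1128 CPM in naïve replicates 1 to 4 and to 71.9 to 93.7 CPM in media libraries. Its part in these decreases was not tested.

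The IL-2 receptor changed chain by chain. Il2ra, which encodes the α chain CD25, stood at 3.83, 3.6, 19.3 and 22.6 CPM in naïve replicates 1 to 4 and at 703, 402, 716 and 462 CPM in media replicates 1 to 4. The groups were far apart, with a log2 fold change of 5.53 ± 0.58 (adjusted p = 3.19e-06). Il2rb, the β chain shared with IL-15, rose from 331 ± 138 to 843 ± 113 CPM (1.35 ± 0.23), with naïve replicate 4 the highest of the naïve libraries. Il2rg, the common γ chain, fell from 327 ± 42.5 to 180.3 ± 11.6 CPM (-0.86 ± 0.10), although 30.5% of its exon length lies in another annotated gene on the same strand. Per length, as TPM (a share of transcripts, corrected for gene length), the α chain went from 7.48 to 348, the β chain from 266 to 680.2 and the γ chain from 468 to 262. Cish, a feedback inhibitor of STAT5 signalling, rose from 13.7 ± 3.51 to 86.4 ± 42.1 CPM (2.66 ± 0.36) and its relative Socs2 from 3.45 to 30.1 CPM (3.12 ± 0.31), while Socs1 and Socs3 did not pass the test (-0.02 ± 0.33 and -1.48 ± 0.44).

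Across all 26 cytokine receptor and SOCS genes 7 rose and 12 fell (26.9% and 46.2%, against 28.5% and 29.0% of all tested genes). Both IL-12 receptor chains were among those that rose: Il12rb1 from 12.8 to 65.9 CPM (2.36 ± 0.51) and Il12rb2 from 16.5 ± 5.32 to 528 ± 58.4 CPM (4.99 ± 0.22). For Il12rb2, 40% of the exon length overlaps Serbp1 on the opposite strand, and whether reads were counted by strand is not given in the sources used here. Il7r, the receptor for the survival cytokine IL-7, stood at 347, 380.3, 373 and 1272 CPM in naïve and 164, 135, 186 and 128 CPM in media replicates 1 to 4. Naïve replicate 4 held more than any other library, and the groups did not overlap (-1.95 ± 0.39, and -1.26 without naïve replicate 4). Il6ra fell from 290.1 ± 63.6 to 19.2 ± 6.98 CPM (-3.92 ± 0.26), Tgfbr2 from 383 to 116 CPM (-1.73 ± 0.15) and Ifngr2, a chain of the interferon-γ receptor, from 79.3 to 14.7 CPM (-2.43 ± 0.34).

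Effector genes were not raised as a block. Gzmb, which encodes granzyme B, stood at 13.4, 17.5, 62.4 and 4.43 CPM in naïve replicates 1 to 4 and at 1629, 1181, 1677 and 1292 CPM in media replicates 1 to 4. The naïve libraries spread widely, all media values lay far above them, and the log2 fold change was 5.88 ± 0.66 (adjusted p = 5.86e-06), and 6.92 without naïve replicate 3. Prf1, encoding the pore protein perforin that granzymes need to enter the target, did not pass the test: it stood at 50.7, 46.1, 61.2 and 32.4 CPM in naïve and 56.7, 31.3, 28.5 and 32.1 CPM in media replicates 1 to 4. In TPM, Gzmb went from 57.6 to 3496 and Prf1 from 62.6 to 50.04. Gzma fell from 19.5 ± 9.38 to 0.616 ± 0.265 CPM (-4.97 ± 0.43), whereas the death ligand Fasl rose from 2.96 to 17.3 CPM (2.55 ± 0.29) and Serpinb6b, a serine protease inhibitor, from 31.7 to 202 CPM (2.67 ± 0.19). Over 17 genes of cytotoxic granules and death ligands, 5 rose and 5 fell. Each share, 29.4%, was near that over all tested genes (28.5% higher and 29.0% lower). The median of that list was -0.03, -0.40 in the lower and 0.47 in the higher run of library numbers.

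Cytokine transcripts were low at 72 h. Of 18 cytokine and chemokine genes in the table, 4 rose and 5 fell (22.2% and 27.8%, against 28.5% and 29.0% of all tested genes). Ifng, the hallmark cytokine of effector CD8+ T cells, stood at 7.72, 16.5, 9.86 and 1.12 CPM in naïve and 5.73, 1.53, 2.84 and 14.5 CPM in media replicates 1 to 4 and did not pass the test (-0.53 ± 0.79), with 25.9% of its exon length inside another gene. Lif, of the IL-6 family, rose from 3.49 ± 1.96 to 22.6 ± 19.7 CPM (2.69 ± 0.60, and 1.86 without media replicate 4) and was no longer called with limma voom or in the lower run of library numbers alone. Xcl1, a chemokine for cross-presenting dendritic cells, rose from 4.79 to 24.7 CPM (2.36 ± 0.27), and Lta from 11.8 to 26.6 CPM (1.18 ± 0.29). Lta was no longer called without naïve replicates 1 or 2 or media replicates 1 or 3 (0.97 to 1.11). Ltb, its membrane partner in lymphoid organ formation, fell from 398 ± 35.7 to 221 ± 15 CPM (-0.85 ± 0.13). Ccl5, a chemokine stored by memory cells, fell from 79.1 ± 29.5 to 7.59 ± 1.9 CPM (-3.38 ± 0.30). Ccl5 belongs to a list of 14 genes of memory-phenotype CD8+ T cells, of which 3 rose and 5 fell. These shares, 21.4% and 35.7%, stand against 28.5% and 29.0% of all tested genes. Eomes fell from 33.4 to 4.99 CPM (-2.74 ± 0.32) and Cxcr3 from 22.4 to 12 CPM (-0.91 ± 0.26), the latter no longer called without naïve replicates 2 or 4 or media replicates 1, 2 or 3 or lactate replicate 2 (-0.93 to -0.73), while Klrk1, which encodes the activating receptor NKG2D, rose from 18.2 ± 7.67 to 254 ± 37 CPM (3.80 ± 0.27).

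Among 38 transcription factors of T cells 13 rose and 9 fell (34.2% and 23.7%, against 28.5% and 29.0% of all tested genes). When naïve replicate 4 was left out, 18 rose and 8 fell. Bhlhe40 had the largest increase, from 55.2 ± 26.3 to 569 ± 77.8 CPM (3.37 ± 0.27). Tbx21, encoding T-bet, the factor of effector differentiation, stood at 8.96, 16.2, 10.02 and 7.11 CPM in naïve and 39.6, 40.3, 33.2 and 51.9 CPM in media replicates 1 to 4. It was higher in all 4 media libraries and rose by 1.96 ± 0.24. Prdm1 (BLIMP-1, of terminal effectors) rose from 8.91 ± 2.66 to 35.7 ± 5.28 CPM (2.00 ± 0.22), Irf4, which scales with receptor signal strength, from 113 ± 91.7 to 296 ± 79.2 CPM (1.39 ± 0.41), and Hif1a, a driver of glycolytic genes, from 148 to 512 CPM (1.79 ± 0.13). Irf4 was no longer called without naïve replicates 1, 2 or 3 or media replicates 1, 2, 3 or 4 or lactate replicates 1, 2, 3 or 4 (1.11 to 1.48), and without naïve replicate 4 it stood at 2.13. Batf, the partner of IRF4, did not pass the test (14.8 to 29.4 CPM in naïve, 22.6 to 29.4 CPM in media, 0.16 ± 0.17). Maf fell most (47 to 0.894 CPM, -5.71 ± 0.68), followed by Zeb2 (39 to 2.25 CPM, -4.11 ± 0.40). Both are also expressed by myeloid cells, whose markers summed to 1128 to 2896 CPM in naïve and 71.9 to 93.7 CPM in media libraries. The part of these cells in both decreases was not tested.

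**Figure D2:**
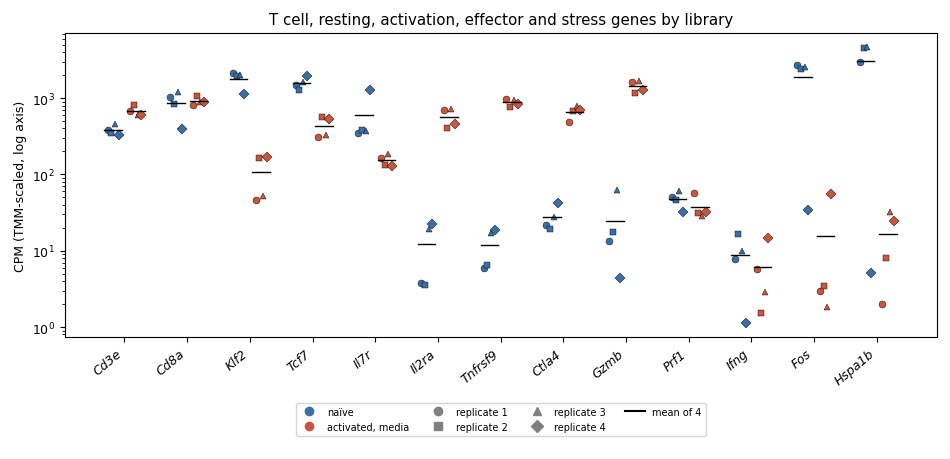
CPM on a log axis of 13 genes of the T cell receptor, resting, activation, effector and stress programmes in the 4 naïve and 4 media libraries, with a marker shape for each replicate and a black bar at each group mean. Il2ra, Tnfrsf9, Ctla4 and Gzmb are higher and Klf2 lower in all 4 media libraries, Prf1 and Ifng overlap, and naïve replicate 4 (diamond) lies far below the other naïve libraries for Fos and Hspa1b.

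Nearly all cell division genes rose. Of 54 mitosis genes 52 rose and 1 fell (median 3.90), and of 47 DNA replication genes 46 rose and 0 fell (median 1.82). Each median stands against -0.03 over all tested genes. The promoters of 3 genes are shown as members of the DNA replication, mitosis and quiescence lists, whose called genes were nearly all of 1 direction: Cdc6, which loads the replicative helicase, Ccnb1, the mitotic cyclin B1, and Klf2 of the resting programme. Sequences are from RefSeq, build GRCm38.p6, and run from 250 bases before to 50 bases after the annotated start, 5′ to 3′ along the gene. Capitals mark motif matches, found on either strand: an E2F-type site (TTTCCCGC, TTTGGCGC or TTTCGCGC) or a CCAAT box. The Cdc6 window (chr11:98907901-98908200, plus strand) holds 1 E2F-type site, TTTCCCGC on the opposite strand, 138 bases before the start. The Ccnb1 window (chr13:100786437-100786736, minus strand) holds 2 CCAAT boxes, 99 and 67 bases before the start. In the Klf2 window (chr8:72318812-72319111, plus strand) none of these letters, nor an E-box (CACGTG) or the CHR element (TTTGAA), were found.
Cdc6: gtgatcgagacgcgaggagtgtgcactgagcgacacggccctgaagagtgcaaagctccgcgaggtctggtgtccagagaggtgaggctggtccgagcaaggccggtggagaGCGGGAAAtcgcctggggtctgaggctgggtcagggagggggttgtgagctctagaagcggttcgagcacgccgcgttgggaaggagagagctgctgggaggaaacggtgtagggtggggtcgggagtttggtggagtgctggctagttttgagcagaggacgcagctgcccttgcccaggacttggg
Ccnb1: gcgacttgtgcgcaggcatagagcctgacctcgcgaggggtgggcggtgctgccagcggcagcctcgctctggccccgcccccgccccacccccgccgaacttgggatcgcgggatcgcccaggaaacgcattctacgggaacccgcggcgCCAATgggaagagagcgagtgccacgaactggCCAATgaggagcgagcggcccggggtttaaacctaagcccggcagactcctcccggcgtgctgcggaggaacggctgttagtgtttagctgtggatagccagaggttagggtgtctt
Klf2: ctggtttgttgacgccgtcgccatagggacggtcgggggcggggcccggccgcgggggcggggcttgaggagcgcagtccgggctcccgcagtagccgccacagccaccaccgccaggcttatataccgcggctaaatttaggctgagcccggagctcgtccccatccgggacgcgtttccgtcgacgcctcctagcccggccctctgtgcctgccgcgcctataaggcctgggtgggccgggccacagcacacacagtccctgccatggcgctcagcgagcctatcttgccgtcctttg

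The promoter table held a 300-base window for 9898 tested genes. An E2F-type site stood in 36.8% of 38 promoters of DNA replication genes, in 6.82% of 44 of mitosis genes, and in 3.78% of all tested genes' promoters. A CHR element stood in 68.2% of mitosis promoters, 13.2% of DNA replication promoters and 12.3% of all. CCAAT boxes were found in 70.5% of mitosis, 65.8% of DNA replication and 39.3% of all tested promoters. They were more frequent still in promoters of endoplasmic reticulum chaperones (94.1%) and of sterol and fatty acid synthesis (86.4%). In 30 promoters of the quiescence list, the E2F-type letters were found in 0 and the CHR letters in 6.67%. E2F and the DREAM complex are known to act through E2F-type and CHR elements in cell cycle promoters, but a match here is only a run of letters.

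Cdc6 itself stood at 6.42, 13.9, 5.55 and 3.36 CPM in naïve and 57.1, 48.7, 53.5 and 64.2 CPM in media replicates 1 to 4. The media libraries were all higher, and naïve replicate 2 was the highest of the naïve ones (2.94 ± 0.32, adjusted p = 5.3e-06). Mki67, the proliferation marker Ki-67, stood at 95.9, 299, 67.3 and 45.3 CPM in naïve and 1094, 1468, 1298 and 1164 CPM in media replicates 1 to 4. Again naïve replicate 2 stood above the other naïve libraries, the one with the most red cell marker RNA (4300 CPM against 98.2 to 1113), and the part of immature blood cells in its level was not tested. The log2 fold change was 3.31 ± 0.48, and 4.11 without naïve replicate 2. Ccnb1 rose from 4.07 ± 2.37 to 88.2 ± 4.43 CPM (4.45 ± 0.29), Plk1, a mitotic kinase, from 9.55 ± 3.98 to 152 ± 13.3 CPM (4.00 ± 0.24), and Bub1, of the spindle checkpoint, had the largest increase of the list, from 5.95 ± 3.45 to 192 ± 9.19 CPM (5.01 ± 0.31). Top2a, the topoisomerase of dividing cells, reached 1497 ± 264 CPM from 60.4 ± 22.1. Pttg1, securin, was the 1 mitosis gene that fell (-0.50 ± 0.13), and it was no longer called without media replicates 2 or 3 (-0.44 to -0.43).

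Among replication genes, all 6 genes of the MCM2-7 helicase rose, from 1.35 for Mcm2 and 1.53 for Mcm4 through 1.75 for Mcm7 and 1.99 for Mcm6 to 2.13 for Mcm5 and 2.14 for Mcm3 (log2 fold changes). Pcna, the sliding clamp, rose less, from 121 ± 13.4 to 262 ± 19.7 CPM (1.11 ± 0.10). Ticrr, an initiation factor, had the largest increase (5.89 to 110.4 CPM, 4.23 ± 0.23). Rpa1, the large subunit that coats single-stranded DNA, did not pass the test (0.16 ± 0.09), whereas its partners Rpa2 and Rpa3 rose (0.99 ± 0.13 and 1.42 ± 0.09).

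The G1 machinery moved less evenly, with 19 of 25 genes higher and 3 lower (median 1.24). E2f1, which drives S phase genes, stood at 10.03, 11.4, 7.54 and 7.17 CPM in naïve and 53.2, 41.5, 45.3 and 50.7 CPM in media replicates 1 to 4, without overlap (2.40 ± 0.16). The repressor E2F genes rose more: E2f7 from 1.65 ± 0.894 to 19.7 ± 2.46 CPM (3.58 ± 0.31) and E2f8 from 9.76 to 68.5 CPM (2.82 ± 0.43, and 3.54 without naïve replicate 2). Cdkn1a, encoding the p21 inhibitor, rose from 8.3 to 95.2 CPM (3.52 ± 0.33), while Cdkn1b, encoding the p27 inhibitor of resting cells, did not pass the test (-0.51 ± 0.23). Of the D cyclins, Ccnd3 rose (162 to 364 CPM, 1.17 ± 0.20) and Ccnd1 fell (16.4 to 0.0758 CPM, -7.55 ± 0.59, and -8.50 without media replicate 1), with 23.4% of the exon length of Ccnd1 inside another gene. Cdk6, which the D cyclins activate, rose from 60.1 ± 8.23 to 169.7 ± 66.4 CPM. Myc, which encodes a transcription factor of early activation, stood at 249, 274, 268 and 139 CPM in naïve replicates 1 to 4. In media replicates 1 to 4 it stood at 336, 243, 303 and 565 CPM. It did not pass the test (0.64 ± 0.25, adjusted p = 0.0381), whereas Mycn rose from 0.439 to 5.43 CPM (3.61 ± 0.67, and 3.00 without media replicate 4). In the network of MYC, MAX and MXD genes 3 of 12 rose and 3 fell. Each share, 25.0%, was near those over all tested genes (28.5% and 29.0%).

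Of 11 genes of DNA methylation and Polycomb 6 rose and 1 fell. Ezh2, the methyltransferase of Polycomb complex 2 in dividing cells, stood at 39.1, 48.8, 42.8 and 34.9 CPM in naïve and 319, 334, 386 and 351 CPM in media replicates 1 to 4, with no overlap (3.07 ± 0.13). Its counterpart in resting cells, Ezh1, did not pass the test (124 ± 17.8 and 117 ± 19.9 CPM). Per length, Ezh2 went from 21.1 to 180.4 TPM and Ezh1 from 57 to 54.8 TPM, so the order of the pair turned. Uhrf1 and Dnmt1, which copy DNA methylation behind the fork, rose by 3.47 ± 0.22 and 1.81 ± 0.13, and Tet3, a demethylating enzyme, fell (-0.92 ± 0.18). Of 20 histone genes 12 rose and 1 fell, but poly(A) selection recovers replication-dependent histone mRNA poorly and most stood under 10 CPM. The linker histone H1f0, which is not replication-dependent, reached 48 CPM from 6.9 (2.80 ± 0.33), and H1f2 fell from 59.9 to 8.23 CPM (-2.87 ± 0.66).

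Nucleotide synthesis rose in parts. For deoxynucleotides, Rrm2, the small subunit of ribonucleotide reductase, rose from 29.3 ± 21.5 to 218 ± 15 CPM (2.90 ± 0.37), Tyms, thymidylate synthase, from 7.76 ± 3.58 to 36.7 ± 4.18 CPM (2.24 ± 0.25), and Tk1 from 11.2 to 77 CPM (2.78 ± 0.32). Cad, which starts pyrimidine synthesis, did not pass the test (0.46 ± 0.23). That list counted 10 of 15 genes higher and 0 lower. Of 13 purine genes 8 rose and 0 fell, led by Paics (119 to 375 CPM, 1.66 ± 0.09) and Impdh2 (102 ± 11.2 to 284 ± 29.9 CPM, 1.48 ± 0.11). Polyamine genes mostly did not pass, with 1 higher and 1 lower of 12. Odc1, their rate-limiting enzyme, stood at 172 ± 98.5 CPM in naïve and 143 ± 37.2 CPM in media libraries.

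Glycolysis rose from glucose uptake to lactate export. Of 25 genes 23 rose and 0 fell, with a median log2 fold change of 3.25, and the list summed to 2581, 2725, 2989 and 2226 CPM in naïve and 23416, 23182, 23020.5 and 23790.4 CPM in media replicates 1 to 4. Glucose enters through Slc2a1 (GLUT1), which stood at 42.9, 45.6, 47 and 54.6 CPM in naïve and 298, 303, 282 and 228 CPM in media replicates 1 to 4, and Slc2a3 (GLUT3), which went from 76.4 ± 21 to 1390.1 ± 52.4 CPM. The groups overlapped for neither gene. Slc2a1 rose by 2.55 ± 0.14 and Slc2a3 by 4.19 ± 0.22, and in TPM Slc2a3 passed Slc2a1, from 35.7 to 665 against 46.3 to 275. Hexokinase traps the glucose. Hk2, the inducible form, rose from 12.6 ± 3.28 to 224 ± 53.6 CPM (4.15 ± 0.24) and Hk1 from 138 ± 23.8 to 347 ± 13.8 CPM (1.33 ± 0.12). In TPM, media cells held Hk1 at 141 and Hk2 at 131, against 55 and 7.25 in naïve cells.

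Further down the pathway, Aldoa, which splits fructose bisphosphate, had the largest gain of any gene in mean CPM. It stood at 313, 333, 349 and 309 CPM in naïve and 4436, 4479, 4278 and 4584 CPM in media replicates 1 to 4, tightly grouped on each side (3.77 ± 0.11). Its isoform Aldoc had the largest fold change in the list, from 2.46 ± 1.13 to 353 ± 48.9 CPM (7.16 ± 0.40). Tpi1 rose by 4.77 ± 0.15, Pgk1 by 4.49 ± 0.15, Pkm by 3.25 ± 0.12 and Gapdh by 3.70 ± 0.13; Gapdh has many near-identical pseudogenes, and reads that map to several places were not counted. Of the 3 phosphofructokinase genes, Pfkm rose by 3.31 ± 0.30, Pfkp by 3.10 ± 0.14 and Pfkl by 2.25 ± 0.10.

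Lactate itself is made by lactate dehydrogenase. Ldha, the subunit of glycolytic cells, stood at 294, 310.2, 359 and 262 CPM in naïve and 2839, 2401, 2713 and 2729.5 CPM in media replicates 1 to 4, with no overlap (3.12 ± 0.11, adjusted p = 1.66e-09). Ldhb, the subunit that favours lactate use, did not pass the test (7.56 ± 1.59 and 8.71 ± 1.97 CPM). The 2 genes stood at 315 and 16.4 TPM in naïve and 2797 and 19.2 TPM in media cells. The exporter Slc16a3 (MCT4) stood at 8.79, 9.97, 9.43 and 11.1 CPM in naïve and 461, 452, 381 and 393 CPM in media replicates 1 to 4, all media values far above all naïve ones (5.42 ± 0.12). Slc16a1 (MCT1), which carries lactate both ways, rose less, from 84.6 ± 22.1 to 159 ± 21.9 CPM (0.91 ± 0.16), and MCT4 passed it in TPM, from 6.31 against 64.8 in naïve to 275 against 125 in media cells. Pdk1, which holds pyruvate back from mitochondria, rose from 249 to 595 CPM (1.26 ± 0.23).

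**Figure D3:**
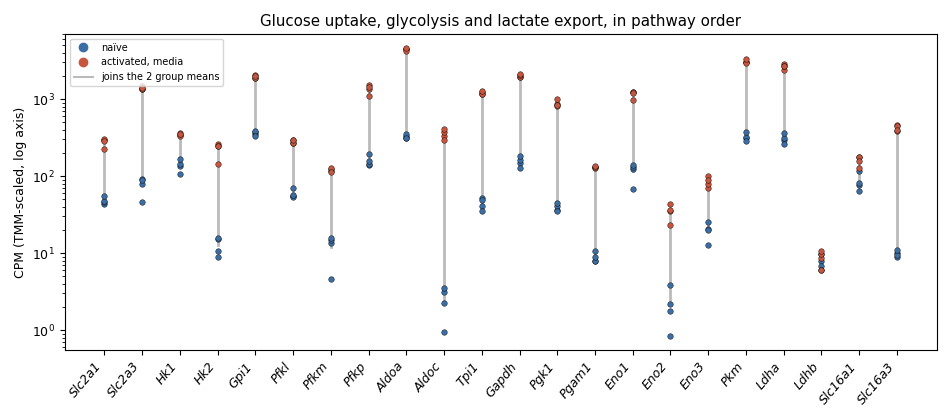
CPM on a log axis of 22 genes of glucose uptake, glycolysis and lactate export, in pathway order, with 1 point for each of the 4 naïve and 4 media libraries and a grey line joining the group means. Apart from Ldhb, whose groups overlap, the media libraries lie above the naïve ones, with the longest line for Aldoc (log2 fold change 7.16).

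Mitochondrial genes rose by less. Of 24 genes of the TCA cycle and pyruvate entry 14 rose and 2 fell (median 0.58). Cs, citrate synthase, stood at 205, 211, 210.1 and 197 CPM in naïve and 439.8, 348, 438 and 412 CPM in media replicates 1 to 4, without overlap (0.99 ± 0.09). Idh3a, of the first oxidative step, did not pass the test (0.31 ± 0.11). Pcx, pyruvate carboxylase, which refills the cycle, stands apart from the rest of the list with 6.08 ± 1.31 against 82.8 ± 5.73 CPM (3.77 ± 0.16), and Ogdh, of the α-ketoglutarate dehydrogenase complex, fell (-0.48 ± 0.12). Of 70 nuclear genes of the respiratory chain 58 rose and 1 fell (median 0.72), with Ndufs1 of complex I at 0.17 ± 0.08, Cox5a of complex IV at 0.98 ± 0.12 and Ndufv3 the highest (2.09 ± 0.17). Of 77 mitochondrial ribosomal protein genes 50 rose and 1 fell, led by Mrpl45 (1.94 ± 0.09), and of 24 genes of import and mitochondrial chaperones 13 rose and 0 fell, led by the protease gene Lonp1 (92.4 to 457 CPM, 2.31 ± 0.15).

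Most tested respiratory chain genes of the mitochondrial genome went the other way. Only 7 such genes were among those tested, which is not all that this genome encodes, and of these 5 fell and 1 rose. These 7 summed to 20974, 19452, 20262 and 20305 CPM in naïve and 10766, 11604, 11078 and 11406 CPM in media replicates 1 to 4. mt-Cytb, of complex III, stood at 3831, 3422, 3689 and 3555 CPM in naïve and 679, 878, 780.1 and 797 CPM in media replicates 1 to 4, with every media value below every naïve one (-2.21 ± 0.13). mt-Co1, of complex IV, did not pass the test (7706 ± 558 and 6673 ± 401 CPM), and mt-Nd6, the 1 such gene on the light strand, rose from 12.5 to 109 CPM (3.12 ± 0.46). The ribosomal RNA gene mt-Rnr1 stood at 217, 274, 280.2 and 279 CPM in naïve and 1118, 1236, 1220.5 and 9765 CPM in media replicates 1 to 4. All media values lay above the naïve ones, and media replicate 4 stood far above the other media libraries. With lactate mt-Rnr1 stood at 2913, 3934, 10894 and 13293 CPM in replicates 1 to 4. Lactate replicates 3 and 4, like media replicate 4, carry library numbers of the higher run. Naïve replicate 4 does too and stood with the other naïve libraries. For media over naïve cells the log2 fold change of mt-Rnr1 was 3.67 ± 0.77, and 2.12 without media replicate 4.

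Fatty acid oxidation showed 10 of 18 genes higher and 1 lower. Cpt1a, which admits long-chain fatty acids to the mitochondrion, did not pass the test (106 ± 36.7 and 72.1 ± 4.94 CPM, -0.55 ± 0.22). Acadl, a long-chain dehydrogenase, rose from 56 to 179 CPM (1.68 ± 0.07), and Acsl1, which activates fatty acids and is high in myeloid cells, fell from 24.3 to 6.4 CPM (-1.92 ± 0.36).

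Lipid synthesis rose as a whole. Of 31 genes of the SREBP-driven sterol and fatty acid pathways 30 rose and 0 fell, with a median of 2.29. Scd2, a fatty acid desaturase, stood at 114, 122, 122 and 67.8 CPM in naïve and 3390.3, 3278, 3375 and 2908 CPM in media replicates 1 to 4. The media libraries lay close together, far above the naïve ones, and its log2 fold change was 4.93 ± 0.19. In the mevalonate pathway, Hmgcs1 rose from 64.4 ± 21.9 to 756 ± 94.6 CPM (3.55 ± 0.21). Sqle, squalene epoxidase of sterol synthesis, rose from 16.5 ± 5.69 to 195 ± 20.3 CPM (3.56 ± 0.21). Fasn, fatty acid synthase, rose less, from 226 ± 23.5 to 418 ± 69.4 CPM (0.89 ± 0.17), and of the transcription factors Srebf2 rose by 1.28 ± 0.10 and Srebf1 by 0.71 ± 0.13. Acss2 was the 1 member that did not pass (0.23 ± 0.21).

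Amino acid supply and one-carbon metabolism also rose in part. Slc7a5, the catalytic chain of the leucine transporter LAT1, stood at 53.5, 75.9, 60.7 and 92.4 CPM in naïve and 405, 170.2, 399.7 and 262 CPM in media replicates 1 to 4, without overlap (2.13 ± 0.26). Its heavy chain Slc3a2 and the glutamine transporter Slc1a5 did not pass the test (0.49 ± 0.16 and 0.37 ± 0.11). Over 14 transporters 5 rose and 2 fell (35.7% and 14.3%, against 28.5% and 29.0% of all tested genes). Slc1a4, for neutral amino acids, stood at 3.92 ± 0.28. In serine synthesis Phgdh rose from 32.2 ± 7.99 to 169.7 ± 39.5 CPM (2.40 ± 0.20) and Psat1 from 30.9 ± 4.51 to 366 ± 76.1 CPM (3.57 ± 0.17). The mitochondrial folate enzymes Shmt2 and Mthfd2 rose by 1.35 ± 0.17 and 2.89 ± 0.15. That list counted 11 of 14 genes higher and 2 lower, the latter being Mtr (-0.98 ± 0.17) and Mat2a (-1.29 ± 0.19), of the methionine cycle.

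Targets of ATF4, the factor of the amino acid response, overlap in function with these genes. Of 14 listed 12 rose and 1 fell. Asns, asparagine synthetase, stood at 2.76, 6.31, 3.77 and 2.91 CPM in naïve and 173, 87, 169 and 110.3 CPM in media replicates 1 to 4, and every media library lay above every naïve one (5.10 ± 0.31). Trib3 rose from 3.41 to 52.9 CPM (3.95 ± 0.34), Pycr1, of proline synthesis, from 0.732 to 25.9 CPM (5.13 ± 0.26), and Ddit4, an inhibitor of mTORC1, from 111 ± 66.2 to 543 ± 95.2 CPM (2.29 ± 0.51). Atf4 itself did not pass the test (0.30 ± 0.13), and Cebpb fell (-2.02 ± 0.25), with 20.7% of its exon length overlapping another gene. Cytosolic tRNA synthetases, many of them ATF4 targets, counted 17 of 20 higher and 0 lower, and Cars rose most (2.11 ± 0.20). Wars and Farsa did not pass (0.27 ± 0.14 and -0.37 ± 0.12).

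Protein synthesis and folding genes did not move alike. Translation factors counted 23 of 37 higher and 1 lower, and Eif4ebp1, the mTORC1-controlled inhibitor of cap binding, rose most (10.8 to 112 CPM, 3.38 ± 0.16). Eef2, the elongation factor, had the second largest gain in CPM of all genes, from 5182 ± 154 to 8863 ± 551 CPM (0.77 ± 0.09). Cytosolic ribosomal proteins did not move as a group: of 76 genes 20 rose and 10 fell, and their median of 0.05 turned to -0.01 under another scaling. The share that rose, 26.3%, was near the 28.5% of all tested genes, and the share that fell, 13.2%, below the 29.0%. Many ribosomal protein genes have processed pseudogenes, and single members are uncertain for that reason. Of 58 ribosome biogenesis genes 19 fell and 4 rose (median -0.35). The share that fell, 32.8%, was near the 29.0% of all tested genes, and the share that rose, 6.9%, below the 28.5%. In the lower run of library numbers alone 11 fell and 2 rose. Rrs1 fell from 38.6 ± 2.58 to 23.7 ± 4.34 CPM (-0.70 ± 0.15) and Utp20 most (-1.50 ± 0.25), while Fbl and Nop56, of the methylation complex, did not pass (-0.10 ± 0.10 and -0.38 ± 0.16). The 4 that rose included the abundant nucleolar genes Npm1 (579 to 1754 CPM, 1.60 ± 0.10) and Ncl (784 to 1582 CPM, 1.01 ± 0.13). An E-box stood in 23.5% of 51 promoters of the whole ribosome biogenesis list, against 10.2% of all tested genes' promoters. For the lysosomal list, whose called genes mostly fell, it was 36.8% of 19 promoters. Of 14 snoRNA host genes 4 rose and 2 fell, with Snhg6 (2.23 ± 0.14) and Gas5 (1.14 ± 0.12) highest. The share of them that rose, 28.6%, was near the 28.5% of all tested genes.

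The chaperonin CCT, which folds actin and tubulin, counted 7 of 8 genes higher and 0 lower, led by Tcp1 (243 to 858 CPM, 1.82 ± 0.08). The constitutive proteasome counted 21 of 32 higher and 1 lower, with Psmc6 highest (1.39 ± 0.10) and Psmc5 the 1 that fell (-0.38 ± 0.11, no longer called without naïve replicate 4 or media replicates 2 or 3 (-0.40 to -0.30)). Of 19 chaperone genes of the endoplasmic reticulum 7 fell and 2 rose, and the share that fell, 36.8%, was near the 29.0% of all tested genes. Hspa5, the main chaperone BiP, fell from 676 ± 135 to 383 ± 99.5 CPM (-0.82 ± 0.19) and Dnajb9, a target of XBP1, from 112 to 14.4 CPM (-2.97 ± 0.62, and -3.82 without media replicate 4), whereas Canx, calnexin, rose (0.80 ± 0.10). Plasma cells are rich in such genes, and their markers summed to 418, 839, 251 and 328 CPM in naïve replicates 1 to 4 and to 5.84 to 9.03 CPM in media libraries. Their part in these values was not tested. Of 28 spliceosome genes 10 rose and 5 fell (35.7% and 17.9%, against 28.5% and 29.0% of all tested genes). Snrpd1, a core ribonucleoprotein gene, rose most (1.54 ± 0.08), and Srsf5, of an SR protein, fell most (-0.88 ± 0.12), with Srsf7 at -0.67 ± 0.11.

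Most of the listed interferon-stimulated genes fell. Of 29 genes of the type I response 20 fell and 2 rose (median -1.80), and 24 fell and 2 rose when naïve replicate 4 was left out. In the lower run of library numbers the median was -2.12, and between the single pair of the higher run -0.86. The list summed to 1950, 1911, 2261 and 818 CPM in naïve replicates 1 to 4 and to 927 to 1382 CPM in media libraries. Naïve replicate 4 thus lay below every media library in this sum. Ifit3, which is induced by interferon, stood at 23.8, 18.9, 27.3 and 4.82 CPM in naïve and 0.416, 0.437, 0.334 and 1.19 CPM in media replicates 1 to 4. Every media library lay below every naïve one (-4.99 ± 0.66, and -5.60 without media replicate 4). Isg15, a ubiquitin-like modifier, fell from 19 ± 11 to 5.31 ± 1.95 CPM (-1.83 ± 0.48, no longer called without naïve replicate 2 or media replicates 3 or 4 (-1.75 to -1.55)) and Irf7, the factor that amplifies the response, from 108 to 23.2 CPM (-2.22 ± 0.36). Ifi27l2a was an exception and rose from 75.1 to 224 CPM (1.58 ± 0.26). Guanylate-binding and immunity-related GTPases, which answer mainly to interferon-γ, counted 2 of 12 lower and 1 higher. Their shares, 16.7% and 8.33%, were below the 29.0% and 28.5% of all tested genes. Gbp2 did not pass (-0.18 ± 0.32). Myeloid cells also express these genes, and their marker RNA was lower in every media library. Its part was not tested.

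Class I presentation counted 3 of 16 genes higher and 4 lower (18.8% and 25.0%, against 28.5% and 29.0% of all tested genes). H2-K1, a classical class I chain, fell from 3289 ± 326 to 1888 ± 190.0 CPM (-0.80 ± 0.12), with near-identical neighbours that could share reads, and B2m, the common light chain, did not pass (-0.19 ± 0.11). Psmb9 and Psmb8, of the immunoproteasome, rose by 1.04 ± 0.17 and 0.78 ± 0.15, as did the peptide transporter Tap1 (0.88 ± 0.13). Of 8 GIMAP genes, GTPases of lymphocyte survival, 1 rose and 3 fell (12.5% and 37.5%, against 28.5% and 29.0% of all tested genes). The rise was of Gimap7 (59.7 to 209 CPM, 1.81 ± 0.23), while Gimap8 fell (-1.31 ± 0.16). Of 14 BCL2 family genes 4 rose and 3 fell (28.6% and 21.4%, against 28.5% and 29.0% of all tested genes). Bcl2 stood at 193, 203, 225 and 64.2 CPM in naïve and 490.3, 373, 537 and 391 CPM in media replicates 1 to 4. It was higher in all media libraries (1.39 ± 0.29), as was Bcl2l1, which encodes BCL-XL (1.24 ± 0.32, no longer called without naïve replicates 1, 3 or 4 or media replicates 1, 3 or 4 (1.05 to 1.18)), and Mcl1 fell (-1.20 ± 0.12). Bcl2l11, the killer BIM, did not pass (0.16 ± 0.36).

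Lysosomal genes were mostly lower, with 16 of 26 lower and 2 higher. Ctsd, cathepsin D, fell from 313 ± 120.1 to 105 ± 14.3 CPM (-1.57 ± 0.22), although 34.4% of its exon length lies in another annotated gene on the same strand, and Ctsb fell from 1174 ± 606 to 195 ± 14.2 CPM (-2.59 ± 0.30). Cathepsins are high in macrophages. The proton pump gene Atp6v1a rose (0.97 ± 0.10). In iron handling Tfrc, the transferrin receptor CD71, stood at 147, 263, 146 and 97.7 CPM in naïve and 626, 664, 833 and 530.4 CPM in media replicates 1 to 4, clearly apart (2.02 ± 0.26), while the ferritin genes Fth1 and Ftl1 fell (-1.60 ± 0.16 and -1.72 ± 0.19). Myeloid marker RNA summed to 1128 to 2896 CPM in naïve and 71.9 to 93.7 CPM in media libraries. Its part in the cathepsin and ferritin decreases was not tested. Of 16 genes of the pentose phosphate and glutathione or thioredoxin systems 5 rose and 3 fell. These shares, 31.2% and 18.8%, stand against 28.5% and 29.0% of all tested genes. Tkt, transketolase, rose from 253 ± 19.3 to 872 ± 68.7 CPM (1.79 ± 0.09) and Txn1, thioredoxin, from 98.6 to 279 CPM, whereas G6pdx, which opens the pathway, did not pass (0.18 ± 0.12). Gclc, which limits glutathione synthesis, fell (-1.21 ± 0.20).

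Of 16 genes of actin, tubulin and their partners 7 rose and 2 fell (43.8% and 12.5%, against 28.5% and 29.0% of all tested genes). Tubb5 rose from 682 ± 59.7 to 2929 ± 81.8 CPM (2.10 ± 0.08), Tubb6 most in fold (6.41 to 77.1 CPM, 3.59 ± 0.23), and Stmn1, which destabilises microtubules in dividing cells, from 10.1 ± 1.73 to 75.1 ± 10.6 CPM (2.90 ± 0.15). Among annexins, S100 proteins and galectins 5 of 12 rose and 2 fell (41.7% and 16.7%, against the same shares). Vim, vimentin, stood at 294, 325, 311 and 204 CPM in naïve and 1185, 1113, 1085 and 1556 CPM in media replicates 1 to 4, with no overlap (2.12 ± 0.18). Lgals1, galectin-1, rose from 46.4 ± 16 to 403 ± 32 CPM (3.12 ± 0.23) and Anxa2 from 42.4 ± 7.97 to 669 ± 65.2 CPM (3.98 ± 0.19), while Anxa1, abundant in myeloid cells, fell (-5.00 ± 0.52). Of the 295 zinc finger genes named Zfp with a number, a large family of mostly repressors, 93 fell and 45 rose. The share that fell, 31.5%, was near the 29.0% of all tested genes, and the share that rose, 15.3%, below the 28.5%.

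**Figure D4:**
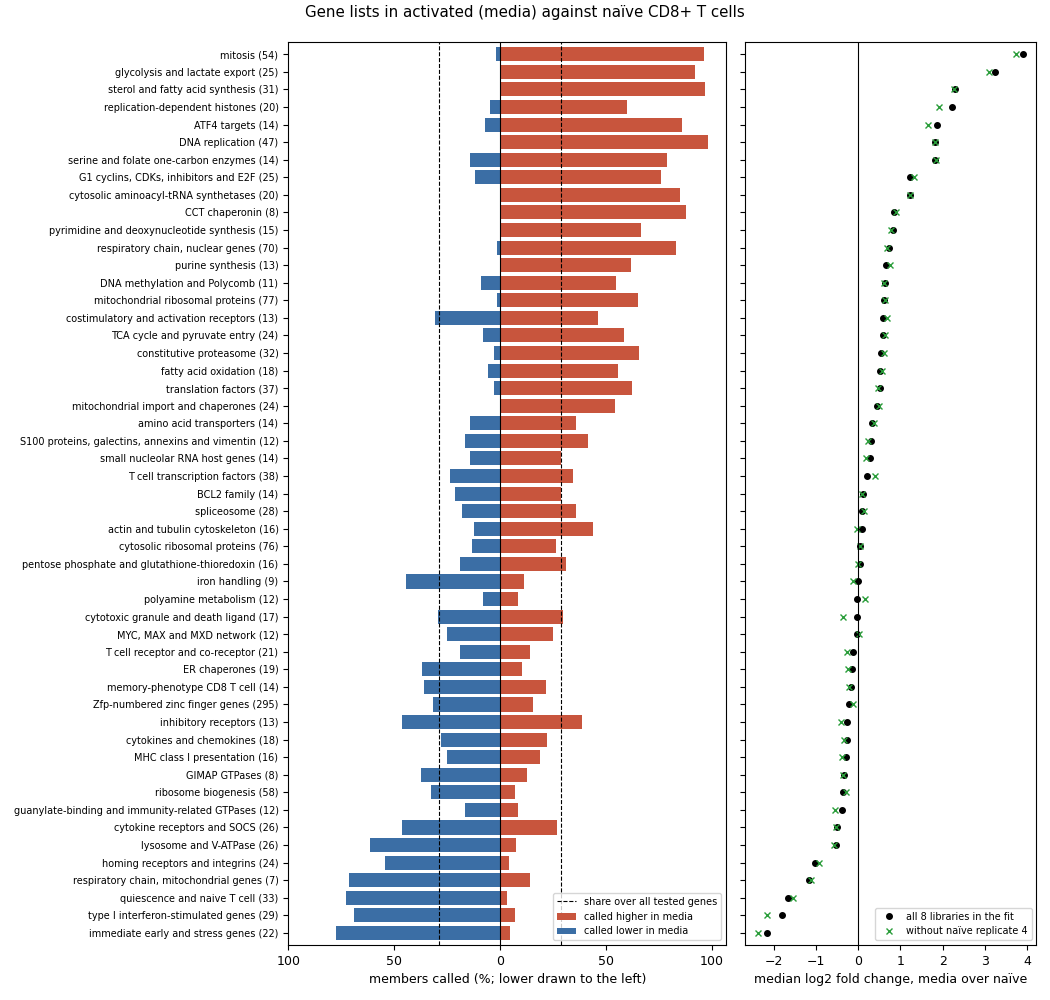
Left, the percentage of the members of each list (number of members in parentheses) called higher in media cells, drawn to the right, or lower, drawn to the left, with dashed lines at the shares over all tested genes (28.5% and 29.0%); right, the median log2 fold change of each list over all libraries (dots) and without naïve replicate 4 (crosses), for lists of at least 7 members other than markers. Mitosis, glycolysis and sterol synthesis have the highest medians, and the immediate early, interferon-stimulated and quiescence lists the lowest.

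The largest increases in fold were of genes with few or no counts in naïve cells, for which values are given and no fold. Dnm1, which encodes dynamin 1, stood at 0, 0, 0.162 and 0 CPM in naïve and 75.7, 111, 95.3 and 56.9 CPM in media replicates 1 to 4. Grin1, a glutamate receptor subunit gene known from neurons, stood at 0, 0, 0.269 and 0 CPM and 33.8, 46.4, 25.2 and 32.3 CPM. Vldlr, a lipoprotein receptor and ATF4 target, stood at 0, 0, 0.0539 and 0.112 CPM and 34.6, 45.5, 35.8 and 31.8 CPM. In these 3 genes the media libraries shared a clear signal, and the naïve libraries held at most 3 counts of Dnm1, 5 of Grin1 and 2 of Vldlr. Also in this group were Aldh1l2, of mitochondrial folate metabolism (6.08 to 14.6 CPM in media), Nos2, the inducible nitric oxide synthase (8.46 to 25.5 CPM), Gipr (15.2 to 28.1 CPM), Smtnl2 (31.2 to 49.9 CPM), Pkp2 (34.4 to 47.1 CPM), Mgarp (39.8 to 56.9 CPM), Fam183b (13.5 to 25.3 CPM), Spin4 (9.03 to 13.6 CPM) and Gm16754 (21.9 to 82.1 CPM, with 19.5% of its exon length overlapping Keap1). Across the table, 19 genes had no count in any naïve library and 228 none in any media library.

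By the gain in mean CPM the leading genes were Aldoa, Eef2, Scd2, mt-Rnr1, Pkm, Ldha, Tubb5 and Hsp90ab1. The place of mt-Rnr1 in this order rests on media replicate 4, as the values above show. Hsp90ab1, a cytosolic chaperone, rose from 2740.4 ± 681 to 4901 ± 458 CPM (0.84 ± 0.16). Pkm, of the last step of glycolysis, rose from 323 ± 36 to 3069.7 ± 153 CPM. The leading losses were Hspa1b, mt-Cytb, Cd74, Ighm, Fos, Ddx5, Jun and mt-Nd1. Ddx5, an RNA helicase gene, fell from 2751 ± 182 to 914 ± 80.1 CPM (-1.59 ± 0.09). Cd74, the invariant chain of MHC class II, and Ighm, the immunoglobulin μ chain, are B cell genes. Cd74 stood at 2456, 3011, 1638 and 2272 CPM in naïve and 15.4, 14.8, 16.2 and 26.1 CPM in media replicates 1 to 4, and Ighm at 1861, 3779, 1677 and 2622 CPM and 417, 620.0, 427 and 679 CPM.

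The 12 largest decreases among genes of at least 10 CPM belonged to macrophages, neutrophils, monocytes and red cells. Slc40a1, the iron exporter of macrophages, stood at 1036, 599, 267 and 150.4 CPM in naïve replicates 1 to 4 and had no count in media, which is at least 3160-fold lower when 3 counts per library are taken as the floor. Slc4a1, the anion exchanger of red cells, stood at 157, 805, 54.2 and 13.1 CPM and also had no count in media (at least 1580-fold lower). The naïve libraries differed widely in it, and replicate 2 held the most. The others were Mrc1, Alas2, S100a9, Hba-a2, Adgre4, C1qc, S100a8, Ngp, Treml4 and Csf1r, with 88.9 to 449.9 CPM of Mrc1 and 205 to 918 CPM of Csf1r in naïve and at most 2 counts of Csf1r in a media library. Over the whole lists, 16 of 16 B cell, 17 of 17 myeloid, 6 of 6 red cell and 6 of 6 NK cell markers fell. Defining markers of B cells stayed detectable: Cd79a from 158 to 1.35 CPM, Cd79b from 176 to 6.57 CPM and Ms4a1 from 162 to 1.02 CPM. Those of myeloid cells were at or near 0 in media (Lyz2 0 to 0.109 CPM, Spi1 0 to 0.439 CPM, Xcr1 at 0 in all 4), as were Ncr1 of NK cells and Alas2 of red cells. Cd4 fell from 22.1 to 0.348 CPM and Foxp3 from 2.32 to 0.14 CPM. Zbtb7b, the third CD4+ T cell marker listed, a factor of that lineage, rose from 22.1 to 47.4 CPM (1.10 ± 0.18). Jchain, of plasma cells, fell from 210.5 to 0.53 CPM. Trdc, of γδ T cells, stood at 286, 262, 351 and 7.06 CPM in naïve and 89.4, 118, 92.3 and 101 CPM in media replicates 1 to 4. It was lowest in naïve replicate 4 and did not pass the test.

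**Figure D5:**
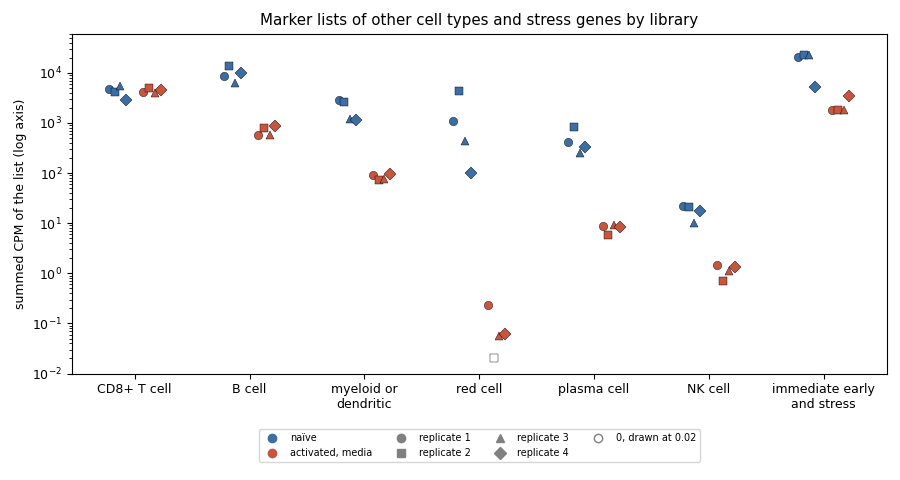
Summed CPM on a log axis of the marker lists of CD8+ T cells and of 5 other cell types, and of the immediate early and stress genes, in each naïve and media library, with a marker shape for each replicate and an open symbol for a sum of 0, drawn at 0.02 CPM. The markers of B, myeloid, red, plasma and NK cells are lower in every media library than in any naïve one, the CD8+ T cell markers overlap, and naïve replicate 4 has the lowest naïve sum of the immediate early and stress genes.

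To look past genes that were near 0 in media cells, the 12 largest decreases were also taken among genes with at least 5 CPM in every media library. This rule was set with the values in view. It named Cd74, Hmox1, Ighd, Dusp1, Sdc3, Rhob, H2-Ob, Klf2, Il6ra, Klf3, Dtx1 and Marcks, so that Klf2, Klf3 and Il6ra of the resting T cell appear beside further B cell and myeloid genes. Hmox1, haem oxygenase of macrophages, stood at 252 to 1034 CPM in naïve and 6.82 to 9.84 CPM in media. Dtx1, a target of Notch, fell from 259 to 19.2 CPM (-3.76 ± 0.36) and Rhob, a small GTPase, from 299 to 20.9 CPM (-3.85 ± 0.81, and -5.43 without media replicate 4).

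Immediate early and stress genes had the lowest median of the lists other than markers of other cells (-2.15), with 17 of 22 lower and 1 higher, but naïve replicate 4 stood apart from the other naïve libraries. Fos, a subunit of the AP-1 factor, stood at 2713, 2388, 2530.1 and 34.6 CPM in naïve and 2.96, 3.49, 1.84 and 54.6 CPM in media replicates 1 to 4. Naïve replicate 4 lay below media replicate 4 and far below the other naïve libraries. Jun stood at 2223, 2655, 2540.2 and 182 CPM and 22.2, 19.9, 24.1 and 313 CPM, and Hspa1b, a heat shock gene with the near-identical neighbour Hspa1a, at 2929.6, 4582, 4722 and 5.1 CPM and 2.03, 8.08, 32.6 and 24.3 CPM. All 3 show the same split inside the naïve group, and the groups overlapped for each. The log2 fold changes over all 8 libraries were -6.94 ± 1.70, -4.33 ± 1.20 and -7.52 ± 1.56, and the exact permutation test gave 0.0571, 0.0571 and 0.114. Without media replicate 4 the log2 fold changes of Fos and Jun were -9.50 and -6.49. Fos was no longer called without media replicates 1 or 2 (-6.61 to -6.59), and Jun no longer called without naïve replicates 1, 2 or 3 or media replicates 1, 2 or 3 (-4.30 to -3.99). Hspa1b was no longer called with limma voom. In the lower run of library numbers the median of the list was -2.36, and between the single pair of the higher run -0.14. Egr1, another immediate early gene, did not pass (214, 255, 189 and 96.6 CPM in naïve, 169, 104, 61.4 and 248 CPM in media), and Ier3 was the 1 that rose (7.49 to 25.1 CPM, 1.74 ± 0.26). How long each spleen was handled before lysis is not given in the sources used here.

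The group activated with 40 mM sodium lactate shares the media libraries as its control, and its values stand here only beside those of media cells. Between these groups 3451 genes, 25.1% of those tested, differed at an adjusted p of at most 0.01 in the unpaired fit. By their labels 3 media and 3 lactate libraries share a tag and a run of library numbers, and with these as a block 992 genes were called, 983 of them also in the unpaired fit. Means were 1445 ± 246 CPM in media and 4672 ± 719.7 CPM with lactate for Gzmb, 571 ± 162 and 1526 ± 179.5 for Il2ra, 278 ± 34.1 and 275 ± 43.1 for Slc2a1, 2671 ± 188 and 3659 ± 266 for Ldha, 1256 ± 165 and 905 ± 136 for Mki67, and 107 ± 67.7 and 27.2 ± 17.8 for Klf2. Glycolysis genes summed to 23352 ± 334 CPM in media and 21540.2 ± 2073 CPM with lactate, against 2630.4 ± 318 CPM in naïve cells. Both activated groups thus stood on the same side of the naïve cells for these 6 genes. Ccr7, which did not pass between media and naïve cells, stood at 258 ± 59.1 CPM with lactate, below the media mean of 513 ± 91.7 (log2 fold change -0.99, adjusted p = 0.00721 in the unpaired fit). With the block Ccr7 did not pass (log2 fold change -0.93, adjusted p = 0.0557 in edgeR).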

How the data were processed

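RNA-seq libraries of mouse CD8+ T cells numbered 8, and 4 further libraries entered the fit. The submitters' processing notes and the study's methods name bcl2fastq 2.20.0.422, STAR 2.7.5b (GRCm38), removal of PCR duplicates and featureCounts on uniquely mapped reads. Libraries were made with a stranded mRNA kit. The deposited values are raw counts per gene, not normalized, with gene lengths. The counting strand is not given in the sources used here. Of 13780 genes, 13767 reached 1 CPM in at least 3 libraries. All of these were tested.

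Counts were scaled by TMM and fitted with the quasi-likelihood model of edgeR 4.0.16 (R 4.3.3), the tool that the study's methods name, with 1 term per group over all 12 libraries. Two-sided p-values were adjusted by Benjamini-Hochberg over the whole table, and 0.01 was the threshold. Standard errors (SE) follow ± after a log2 fold change, and SD (n = 4) after a mean. Means with no SD are of the same 4 libraries. TPM used the deposited lengths, and log2 CPM a prior count of 2. Coordinates and overlaps were from GENCODE M21, which held 13758 of the tested identifiers. The fit was tested on simulated counts. Depth gave 15842423 to 20922872 counts a library in the 8 naïve and media libraries and 14726904 to 21478137 over all 12.

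The members and the 51 gene lists were chosen with earlier results of these data known. Genes named are list anchors, the extremes of each list, the 12 largest increases and decreases of at least 10 CPM without overlap, the 8 largest gains and losses in CPM, and markers of other cells. Some genes this rule selects are not named, and others were named after their values were seen. Alternatives included DESeq2 1.42.0, limma 3.58.1 voom, other scalings and filters, a replicate block, a term for the run of library numbers, a fit of both groups alone and leaving out each library. Scaling without other cells' genes, and the lists without naïve replicate 4, and a block by tag and run for lactate against media, were added after seeing the data.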

Additional observations from a re-analysis of the deposited data

Results flagged for a closer look

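In each group of 4 libraries, the highest or the lowest value of a gene named above was set against the other 3 by Dixon's ratio of its gap to the range. Of 521 groups with a value of at least 1 CPM, 50 had such a value, where chance alone flags about 1 in 20 groups. Naïve replicate 4 held 21 of them. Naïve replicate 4 stood above the other naïve libraries for Bcl2l11 at 309 CPM (others 92.2 to 96.4), Cars at 58.1 CPM (others 30.7 to 32.5), Cdkn1a at 15.5 CPM (others 5.41 to 6.31), Gclc at 144 CPM (others 75.9 to 80.9) and Hmgcs1 at 96.9 CPM (others 49.5 to 57.1). It was likewise above them for Icos at 89.3 CPM (others 33 to 36.9), Il7r at 1272 CPM (others 347 to 380.3), Klf3 at 783 CPM (others 334 to 387), Lonp1 at 121 CPM (others 80.3 to 87.1) and Odc1 at 317 CPM (others 111 to 145). Above the others in it were also Pdcd1 at 10.6 CPM (others 1.51 to 2.25), Rpa2 at 41.7 CPM (others 31.5 to 32.8), S1pr1 at 955 CPM (others 417 to 470.0), Srebf2 at 412 CPM (others 300.2 to 317) and Tigit at 15.5 CPM (others 2.88 to 3.34). Further such values above the rest were Tnfrsf18 at 58.1 CPM (others 25.6 to 31). Naïve replicate 4 stood below the other naïve libraries for Cdk6 at 47.7 CPM (others 64 to 64.4), Dnajb9 at 57.8 CPM (others 125 to 134), Dtx1 at 81.7 CPM (others 303 to 329), Fos at 34.6 CPM (others 2388 to 2713) and Scd2 at 67.8 CPM (others 114 to 122). Naïve replicate 2 stood above the other naïve libraries for Acsl1 at 45.8 CPM (others 14.7 to 19.6), Bcl2l1 at 56.2 CPM (others 18.5 to 22.9), Ccnb1 at 7.57 CPM (others 2.35 to 3.21) and E2f8 at 22.2 CPM (others 4.15 to 7.16). Naïve replicate 3 stood below the other naïve libraries for Foxo3 at 109 CPM (others 119 to 119.5) and Spi1 at 30.8 CPM (others 62 to 65.8). Naïve replicate 1 stood below the other naïve libraries for mt-Rnr1 at 217 CPM (others 274 to 280.2). Naïve replicate 3 stood above the other naïve libraries for Gbp2 at 200.1 CPM (others 86.1 to 101). Media replicate 4 stood above the other media libraries for Cd69 at 279 CPM (others 87.8 to 94.9), Cd74 at 26.1 CPM (others 14.8 to 16.2), Dnajb9 at 32.7 CPM (others 6.66 to 10.4), Dusp1 at 52.1 CPM (others 8.75 to 11.5) and Fos at 54.6 CPM (others 1.84 to 3.49). It was likewise above them for Icos at 229.7 CPM (others 122 to 134), Ifit3 at 1.19 CPM (others 0.334 to 0.437), Jun at 313 CPM (others 19.9 to 24.1), Rhob at 61.7 CPM (others 5.96 to 8.83) and Socs3 at 122 CPM (others 29.1 to 39). Above the others in it were also mt-Rnr1 at 9765 CPM (others 1118 to 1236). Media replicate 2 stood below the other media libraries for Acsl1 at 3.49 CPM (others 7.25 to 7.54), Mcm3 at 296 CPM (others 360.3 to 370.4), Mcm4 at 294 CPM (others 325 to 327) and Nop56 at 76.4 CPM (others 120.5 to 128). Media replicate 1 stood above the other media libraries for Prf1 at 56.7 CPM (others 28.5 to 32.1) and Zbtb7b at 55.3 CPM (others 44.2 to 45.4). Media replicate 4 stood below the other media libraries for Hk2 at 144 CPM (others 243 to 263) and Rpa1 at 213 CPM (others 244 to 250.1). Media replicate 1 stood below the other media libraries for Bub1 at 178 CPM (others 195 to 198). Media replicate 2 stood above the other media libraries for Bcl2l11 at 226 CPM (others 139.9 to 147). These values entered every fit unless a sentence says otherwise, and what sets the libraries apart was not tested.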

How the results depend on the processing

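The counts were recomputed under 27 alternatives, the medians of 51 gene lists under 25, and the genes named under all that tested them. The count of 7915 genes ran from 6048, with at least 10 counts required in each of the 8 libraries (fewer genes tested), to 8455 with DESeq2 and 9387 at an adjusted p of 0.05. Tested against a 2-fold change instead of no change, it was 3227, of which 1625 were higher and 1602 lower. Leaving out 1 library at a time gave 7158 to 8469 genes, 3373 to 4232 higher and 3533 to 4237 lower, and the most were called without naïve replicate 4. With the replicate number of the titles as a block (replicate block) 7806 genes were called. The numbers do not pair the libraries: deviations of same-numbered naïve and media libraries from their group means correlated at -0.11, -0.06, -0.0035 and -0.02 across genes, and 0 of the 4 naïve libraries matched its own number best. The scalings moved the median of all genes to between -0.09 and -0.02.

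Against a 2-fold change 67 genes named lost their call. Otherwise, with all libraries, calls were lost for Itgb1 with DESeq2, Irf4 and Itgb1 with the stricter filter, with DESeq2's size factors and with scaling without other cells' genes, Psmc5 with scaling by total counts, Cd40lg, Cxcr3, Hspa1b, Isg15, Lif and Lta with limma voom, Cd40lg, Cxcr3 and Pttg1 with the replicate block, and Bcl2l1, Cd40lg, Cd8b1, Cxcr3, Irf4, Isg15, Itgb1, Jun, Lta, Psmc5 and Pttg1 in a fit of both groups alone. In the lower run alone they were lost for Bcl2l1, Cxcr3, Itgb1, Lif, Lta and Psmc5. Some genes that had not passed gained a call. Socs3 and Farsa stayed uncalled in 15 and 14 of 25 alternatives and were called in the others, DESeq2 among them. Slc1a5 and Slc3a2 were called with the edgeR likelihood ratio test, and these 2, Atf4 and Idh3a without media replicate 2. Cpt1a and Trdc were called in the lower run alone and without naïve replicate 4. Lactate against media gave 992 genes with the block by tag and run, against 3451.

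Directions turned only for values that had not passed the test, apart from list medians. The median of the inhibitory receptors was 1.43 with at least 10 counts in each library, and that of the spliceosome ran from -0.0093 to 0.15 with single libraries left out. In the lower run of library numbers alone, log2 fold changes were -0.027 for Acss2, -0.10 for Batf, 0.021 for Ccr7, -0.17 for Cd8a, 0.071 for Ezh1, -0.016 for Ldhb and 0.23 for Odc1. Leaving out single libraries gave -0.082 to 0.81 for Bcl2l11, -0.49 to 0.0072 for Ccr7, -0.16 to 0.26 for Cd8a, -0.20 to 0.027 for Ezh1, -0.37 to 0.17 for Gbp2, -0.48 to 0.22 for Odc1 and -0.46 to 0.23 for Socs1. The cause was not tested.

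The biological coefficient of variation was 23.5%, and the median SE of a log2 fold change 0.18, so small changes can be missed. Near 0 counts, fitted fold changes depend on the prior count.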
